A study of Mus musculus with 10 samples.

Results

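The 7 genes described here are Smchd1, its binding partner Lrif1, and 5 members of the structural maintenance of chromosomes (SMC) family: Smc2, Smc3, Smc4, Smc5 and Smc6. They were taken by gene symbol from a count table of 52632 mouse genes, and all 7 were among the 17110 genes that passed a filter on low counts. The counts come from poly(A) RNA of neural stem cell cultures, each grown as an adherent monolayer in EGF and FGF from the cortices of 1 embryo taken on embryonic day 14.5. There were 2 cultures each of female E147A/+ and female +/+, and 3 each of the same genotypes in males. The females of either genotype also carried an Xist deltaA allele on 1 X chromosome. E147A/+ embryos were heterozygous for a SMCHD1 allele with the E147A mutation and a GFP tag, so mutation and tag cannot be told apart. The labels describe the embryos of every group as having a Castaneus (Cast) father and a mother that was an F1 of 129 and C57.

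SMC proteins fold back on themselves so that an ATPase head and a hinge sit at opposite ends of a long coiled coil, and they work as pairs. SMC3 with SMC1 forms the core of cohesin, which holds sister chromatids together and shapes chromatin loops. SMC2 with SMC4 forms the core of condensin, which compacts mitotic chromosomes, and SMC5 with SMC6 forms another complex that acts in DNA repair and replication. SMCHD1 is a noncanonical relative that has an SMC-type hinge but a different ATPase domain of the GHKL class, and it takes part in silencing the inactive X chromosome and some autosomal gene clusters. LRIF1 binds SMCHD1 and the heterochromatin protein HP1. Neural stem cells in culture divide, and transcripts of condensin and of many cohesin regulators are known to be most abundant in cycling cells.

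Total counts per library ranged from 20648916 to 44519020. The cultures were litter mates in part: female E147A/+ came from litters 1 and 2, both female +/+ from litter 3, male E147A/+ from litters 1, 1 and 3, and male +/+ from litters 4, 1 and 3. Litter and genotype therefore cannot be told apart in females. The labelled cell type was checked against its markers: all 8 neural stem cell markers passed the filter, and their summed level was 4675 to 6722 CPM (counts scaled to a common library total) over the 10 libraries. The 6 neuronal markers summed to 558.3 to 1030 CPM, of which Map2 alone gave 477.1 to 981.4 CPM. Their sum was highest in male +/+ replicate 3, followed by female +/+ replicate 2 (797.5 CPM). The 4 astrocyte markers summed to 36.1 to 117.8 CPM and the 6 oligodendrocyte lineage markers to 85.4 to 447.7 CPM, highest in male +/+ replicate 1. Microglial (5 markers), endothelial (4) and fibroblast or meningeal (4) markers summed to at most 2.83, 3.98 and 11.0 CPM. The parentage given in the labels is not borne out at these genes: with a Cast father each embryo would carry a Cast copy of every autosomal gene, but among the 28 combinations of gene and female library, 16 had a Cast share near 0 (at most 0.680%) and 12 a share near 50%. The cause was not tested, and the female results below are given beside these shares. In bulk RNA, fewer cells of a type and less RNA per cell cannot be told apart.

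The mutated residue lies in the ATPase domain of SMCHD1. In the GENCODE M21 transcript of Smchd1 (GRCm38), the codon of the residue changed in E147A lies in exon 4, on the minus strand of chromosome 17 at 71456484 to 71456486. The codon is shown in capitals with the coding bases that follow it in the same exon (chr17:71456427-71456486), because the gene counts below do not read it: each count is a whole-gene sum, and the mutated and the unmutated allele enter the same sum.
Smchd1 from the E147A codon: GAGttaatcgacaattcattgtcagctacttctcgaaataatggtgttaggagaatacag
GAG is a codon for glutamate, the E of E147A.

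Levels were first put in order, per kilobase of the longest protein-coding transcript so that genes of different length can be compared. Smc4 had the highest level, 65.9 ± 13.0 CPM per kb (SD over 10 libraries). Smc3 followed with 33.5 ± 4.79 and Smc2 with 31.3 ± 9.31 CPM per kb, then Smc5 with 25.2 ± 7.04, Smc6 with 21.3 ± 3.09 and Smchd1 with 19.2 ± 4.09. Lrif1 was lowest, at 4.44 ± 1.55 CPM per kb. The lowest Smc4 library (43.9) lay above the highest Smc3 library (39.8), and the highest Lrif1 library (6.94) lay below the lowest Smchd1 library (13.3). The ranges of the 5 genes between them overlapped from each gene to the next over the 10 libraries. Within libraries, Smc6 was above Smchd1 in 9 of 10 (all but male +/+ replicate 3) and Smc3 above Smc2 in 8 of 10. Smc2 was above Smc5 in 6 of 10, the 4 exceptions being the libraries of litter 1, and Smc5 above Smc6 in 6 of 10, the 4 exceptions being the libraries of litter 3. These counts are descriptions, with no test. Smc3 and Smc6 varied least between libraries, with a coefficient of variation of 14.3% and 14.5%. Lrif1 varied most, with 35%, followed by Smc2 (29.7%), Smc5 (27.9%), Smchd1 (21.3%) and Smc4 (19.7%).

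None of the 7 genes passed an adjusted p of 0.05 for genotype in edgeR's quasi-likelihood test, over both sexes or in either sex. Calls were rare among all genes tested: 0.0818% passed over both sexes (0.0468% higher and 0.0351% lower), 0.0117% in females (0.00584% in either direction) and 0.0234% in males (0.0117% in either direction). For none of the 7 did the 5 E147A/+ libraries lie all above or all below the 5 +/+ libraries, as they did for 0.695% and 0.742% of all genes. By their fitted values 5 of the 7 were lower in E147A/+ and 2 were higher, with a median log2 fold change of -0.17 against -0.014 over all genes. Smchd1 had an unadjusted p of 0.0222, and the other 6 had 0.0746 or more, where 5.9% of all genes had an unadjusted p under 0.05. In females 0 of the 7 genes were under that unadjusted limit (4.36% of all genes), and in males 1, Smchd1 (3.44% of all genes).

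**Figure D1:**
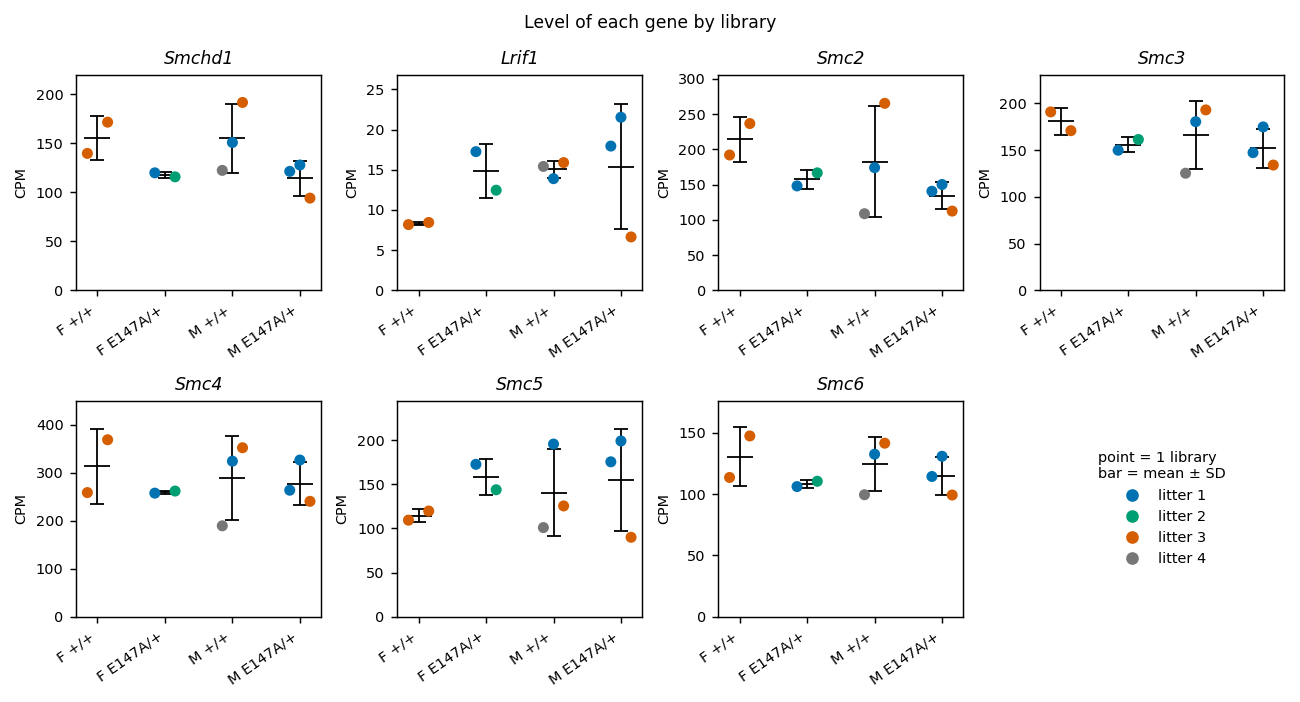
Level of each of the 7 genes in CPM (y axis, from 0) by sex and genotype (x axis); each point is 1 library coloured by litter, and the black bars are the mean and SD of the group. Smchd1 and Smc2 sit lower in most E147A/+ libraries, and the blue litter 1 points of Smc5 (172.6 to 199.0 CPM) sit above the orange litter 3 points (89.9 to 125.5 CPM) whatever the genotype. Litter 1 lay above litter 3 in this way for 11.4% of all genes tested.

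Smchd1 (ENSMUSG00000024054, chromosome 17, 71344489 to 71475343, GRCm38, minus strand, protein-coding) was at 119.9 and 115.8 CPM in female E147A/+, against 139.7 and 171.6 CPM for female +/+. In males it was at 121.4, 127.9 and 94.1 CPM in E147A/+ and at 122.4, 150.9 and 191.7 CPM in +/+. The female genotypes did not overlap, as for 6 of the 7 genes (all but Smc4). Both female E147A/+ libraries lay below both +/+ libraries for Smchd1, Smc2, Smc3 and Smc6 and for 19.3% of all genes, and above them for Lrif1 and Smc5 and for 21.8% of all genes. In males the Smchd1 levels overlapped through a single pair, male +/+ replicate 1, the only library of litter 4, at 122.4 CPM and male E147A/+ replicate 2 at 127.9 CPM. Over both sexes the Smchd1 log2 fold change came to -0.42 (SE 0.15; edgeR adjusted p 0.786). It was -0.40 (SE 0.24) in females, or -0.24 without female +/+ replicate 2. In males it was -0.44 (SE 0.20), or -0.26 without male +/+ replicate 3 and -0.28 in limma-voom with sample quality weights. Female +/+ replicate 2 and male +/+ replicate 3 also had the highest summed neuronal markers (797.5 and 1030 CPM), whose part was not tested. The difference between the sexes in the Smchd1 fold change was 0.036 (SE 0.31, edgeR adjusted p 0.999). The interaction had 0 calls over all genes in edgeR, with 314 genes (1.84%, none of the 7 among them) at an unadjusted p under 0.05, and 2 calls in DESeq2.

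Within litters the Smchd1 levels were separated. In litter 1 the 3 E147A/+ libraries were at 119.9, 121.4 and 127.9 CPM and the +/+ library at 150.9 CPM, a mean log2 difference of -0.29. In litter 3 the E147A/+ library was at 94.1 CPM and the 3 +/+ libraries at 139.7 to 191.7 CPM, a difference of -0.82. E147A/+ libraries lay below +/+ libraries in both litters for 4 of the 7 genes, Smchd1, Smc2, Smc3 and Smc6, and for 10.6% of all genes tested. They lay above in both litters for 0 of the 7 genes and 9.61% of all genes. The proliferation score described below was lower in E147A/+ in the same litters, by 0.14 in litter 1 and 0.94 in litter 3, and its part in these differences was not tested within litters. Over all libraries, with the score as a covariate, the Smchd1 log2 fold change was -0.30 (SE 0.10, adjusted p 0.456), and with litter as a covariate -0.53 (SE 0.22, adjusted p 0.98).

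Lrif1 (ENSMUSG00000056260, chromosome 3, 106684987 to 106736577, plus strand) had the lowest counts of the 7 genes, 200 to 747 per library. Female E147A/+ cultures had 17.2 and 12.5 CPM of Lrif1, against 8.18 and 8.45 CPM for female +/+. In males it was 17.9, 21.5 and 6.65 CPM in E147A/+ and 15.4, 13.9 and 15.9 CPM in +/+. The genotypes overlapped in males, where male E147A/+ replicate 3 was the lowest of all 10 libraries and replicate 2 the highest. The log2 fold change was 0.43 (SE 0.29, adjusted p 0.824) over both sexes, 0.27 without male E147A/+ replicate 2, and -0.0012 (SE 0.42) with litter as a covariate. Across the 10 libraries Pearson's r between the log2 CPM of Lrif1 and of Smchd1 was 0.13.

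Smc2 (ENSMUSG00000028312, chromosome 4, 52439243 to 52488260, plus strand), the condensin core subunit, was at 148.1 and 166.6 CPM in female E147A/+, against 191.9 and 236.5 CPM for female +/+. In males it was at 140.5, 150.1 and 112.4 CPM in E147A/+ and at 108.7, 174.0 and 265.1 CPM in +/+. Male +/+ thus held both the lowest and the highest Smc2 library of the series. Its genotype value in log2 was -0.44 (SE 0.22, adjusted p 0.821), or -0.26 without male +/+ replicate 3, and with the proliferation score as a covariate it was -0.22 (SE 0.11, adjusted p 0.566). Smc4 (ENSMUSG00000034349, chromosome 3, 69004738 to 69034623, plus strand), its partner, ranged from 240.5 to 326.7 CPM in the 5 E147A/+ libraries and from 189.5 to 368.9 CPM in the 5 +/+ libraries. The genotype value of Smc4 was -0.17 in log2 (SE 0.19, adjusted p 0.866), -0.36 (SE 0.23) with litter and 0.0094 (SE 0.12) with the score as a covariate. Leaving out 1 library it ran from -0.28 without male +/+ replicate 1 to -0.028 without female +/+ replicate 2, and it was -0.27 without female +/+ replicate 1 and -0.082 without male +/+ replicate 3. The 6 other condensin subunits, Ncaph, Ncapg and Ncapd2 of condensin I and Ncaph2, Ncapg2 and Ncapd3 of condensin II, were all tested for genotype and none passed. Their fold changes ran from -0.34 (Ncapg2) to -0.0043 (Ncapd2), with a median of -0.18.

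Smc3 (ENSMUSG00000024974, chromosome 19, 53600398 to 53645833, plus strand), the cohesin core subunit, was at 134.0 to 174.8 CPM in E147A/+ and at 125.2 to 192.9 CPM in +/+. The genotype value of Smc3 was -0.17 in log2 (SE 0.15, adjusted p 0.833), -0.11 without male +/+ replicate 3, -0.35 with litter and -0.065 with the score as a covariate. Of 20 other cohesin subunits and regulators, 18 were tested and none passed for genotype; 16 had negative and 2 positive fitted values, with a median of -0.19 against -0.014 for all genes. The lowest p among them belonged to Pttg1, the securin that restrains separase, at -0.55 (SE 0.17, unadjusted p 0.00875, adjusted p 0.701). Its value was -1.13 (SE 0.26) in females and 0.035 (SE 0.21) in males, and the difference between the sexes was -1.17 (SE 0.34, unadjusted p 0.00623, adjusted p 0.999). Stag1, a subunit that binds the cohesin ring, followed at -0.46 (SE 0.23, adjusted p 0.821). Pds5b, a regulator of cohesin release, was at -0.23 (SE 0.13, adjusted p 0.821). Smc1a, the ring partner of SMC3, was at -0.23 (SE 0.14, adjusted p 0.821).

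Smc5 (ENSMUSG00000024943, chromosome 19, 23206451 to 23273897, minus strand) and Smc6 (ENSMUSG00000020608, chromosome 12, 11265886 to 11319785, plus strand) form 1 complex but differed in pattern. Smc5 was at 172.6 and 143.8 CPM in female E147A/+, against 109.3 and 119.7 CPM for female +/+. In males it was at 175.4, 199.0 and 89.9 CPM in E147A/+ and at 100.9, 195.5 and 125.5 CPM in +/+. The lowest library and the highest library were both male E147A/+. The log2 fold change was 0.30 (SE 0.25, adjusted p 0.825) and turned to -0.26 (SE 0.17, adjusted p 0.98) with litter as a covariate. The female part of that second value carries over the litter difference measured in males. In the fit with group means alone, the log2 fold change was 0.19 without male E147A/+ replicate 2 and 0.46 without male +/+ replicate 2. Smc6 ranged only from 99.2 to 130.8 CPM in E147A/+ and from 99.4 to 147.3 CPM in +/+, and its genotype value was -0.19 in log2 (SE 0.14, adjusted p 0.824), -0.093 without female +/+ replicate 2, -0.36 with litter and -0.090 with the score as a covariate. Pearson's r between Smc5 and Smc6 was 0.36 over the 10 libraries. Of the 7 other genes of the SMC5/6 complex and its loading factors, all were tested and none passed for genotype, with fold changes from -0.63 (Eid3, at most 21 counts per library) to 0.21 (Nsmce3). The lowest p values were those of Nsmce3 (0.142), Nsmce4a (0.152) and Nsmce1 (0.195), all unadjusted.

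**Figure D2:**
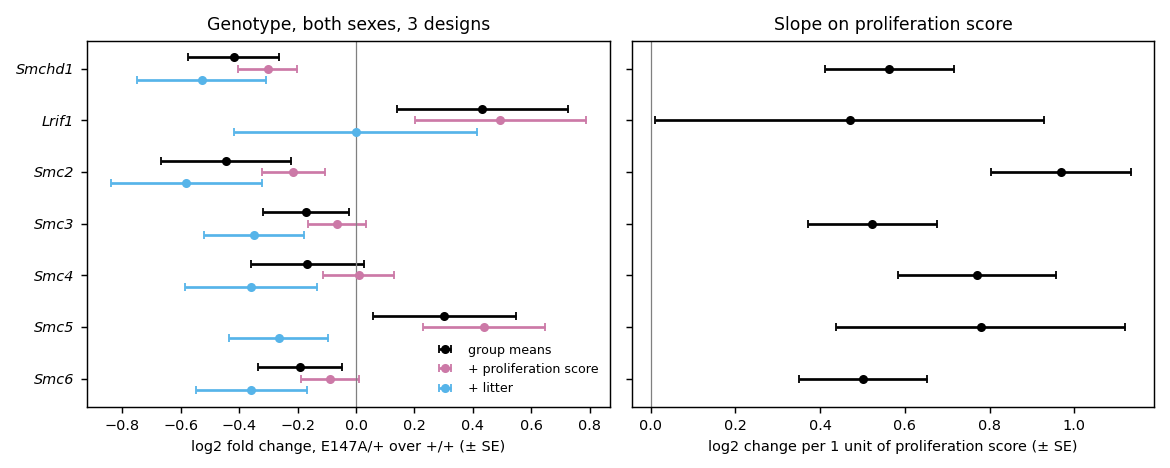
Left, log2 fold change of E147A/+ over +/+ over both sexes (x axis) for each gene, fitted with group means, with the proliferation score added, and with litter added; right, log2 change per unit of proliferation score. Points are edgeR estimates and bars are 1 SE. Smchd1 stays between -0.53 and -0.30 in the 3 designs, Smc5 changes sign with litter, and all 7 slopes are positive, from 0.47 to 0.97. With litter added, the female part of each value carries over the litter difference measured in males.

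Proliferation state was measured as the mean log2 CPM of 36 cell cycle genes, 17 of S phase and 19 of G2/M, none of them among the 7 genes. Female E147A/+ libraries scored 6.86 and 7.07, and female +/+ libraries 7.12 and 7.29. In males it was 6.82, 6.91 and 6.29 in E147A/+ and 6.15, 7.004 and 7.30 in +/+. Male +/+ replicate 1 (6.15) and male E147A/+ replicate 3 (6.29) stood apart below the other 8 libraries, which lay between 6.82 and 7.30. The mean was 6.79 ± 0.29 (SD, n = 5) in E147A/+ and 6.97 ± 0.48 (SD, n = 5) in +/+. Within litter 1 the E147A/+ libraries scored 6.82 to 6.91 and the +/+ library 7.004. Within litter 3 the E147A/+ library scored 6.29 and the +/+ libraries 7.12 to 7.30. The test that follows did not take litter into account. The difference averaged over the sexes was -0.19, with p = 0.35 in an exact two-sided permutation test of genotype within sex, where 0.0167 is the smallest possible. It was -0.36 without male +/+ replicate 1 (exact permutation p = 0.0333, the smallest possible there), -0.098 without male E147A/+ replicate 3 and -0.073 without male +/+ replicate 3 (exact permutation p = 0.733 in both). It was larger for the G2/M genes (-0.32, exact permutation p = 0.0833) than for the S phase genes (-0.049, exact permutation p = 0.817), a difference between lists that was not tested. No cell cycle gene passed for genotype. All 19 G2/M genes had negative fitted values, with a median log2 fold change of -0.31, and among the 17 S phase genes 5 were positive, with a median of -0.16. The lowest p values were those of Cenpf, a kinetochore protein, at -0.66 (SE 0.14, adjusted p 0.292), Ccnb2, a mitotic cyclin, at -0.41 (SE 0.14, adjusted p 0.727), and Mki67, the proliferation marker, at -0.53 (SE 0.18, adjusted p 0.748).

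Each gene was then tested for a slope on this score with the 4 group means kept in the model. In edgeR's test 1 of the 7 genes passed, Smc2, against 1.67% of all genes (1.11% with a positive slope). Smc2 rose by 0.97 log2 units per unit of score (SE 0.16, adjusted p 0.0332). The slopes of the other genes did not pass: 0.77 (SE 0.19, adjusted p 0.08) for Smc4, 0.56 (SE 0.15, adjusted p 0.103) for Smchd1, 0.52 (SE 0.15, adjusted p 0.122) for Smc3 and 0.50 (SE 0.15, adjusted p 0.131) for Smc6. Smc5 had 0.78 (SE 0.34, adjusted p 0.251), with 0.46 without male E147A/+ replicate 3 and 1.28 without male +/+ replicate 3. Lrif1 had 0.47 (SE 0.46, adjusted p 0.607), with -0.048 without male E147A/+ replicate 3, 1.95 without male +/+ replicate 1 and 0.71 without male +/+ replicate 3. Over all alternatives the Lrif1 slope ran from -0.069 to 1.95 (1.94 with litter) and that of Smc5 from -1.24 to 1.28. The Smchd1 slope was 0.92 with litter as a covariate and 0.88 without the 2 low-score libraries, and that of Smc3 0.28 without them. With the score alone and no group means Smc3 passed (adjusted p 0.0421). An unadjusted p under 0.05 was reached by 6 of the 7 and by 19.7% of all genes. DESeq2 also passed Smchd1 (adjusted p 0.0207), Smc3 (0.03), Smc4 (0.00651) and Smc6 (0.0471), and called 1615 genes in place of 285. Limma-voom with sample quality weights, which called 1421 genes, also passed Smc3 (adjusted p 0.027), Smc4 (0.0134), Smc5 (0.0367) and Smc6 (0.0415). The edgeR calls were lost on leaving out any one of 6 libraries, the 5 E147A/+ libraries and male +/+ replicate 1: each of these fits called 0 genes, with 1222 to 3247 at an unadjusted p under 0.05. The fits without 1 of the other 4 libraries called 87 to 373 genes. Leaving out either library of a female group gave nearly the same fit, because the library left is absorbed by its group mean. The Smc2 slope was 0.97 in both such fits for E147A/+, and 0.95 and 0.96 for +/+. These fits are therefore not separate checks. Without the 2 low-score libraries together edgeR called 0 genes, with 1624 at an unadjusted p under 0.05, and the Smc2 slope was 1.64 with an adjusted p of 0.52. Leaving out single libraries, the Smc2 slope ran from 0.77 to 1.06 and passed in 3 of 10 fits, its adjusted p reaching 0.642 without male +/+ replicate 1. That library also had the highest summed oligodendrocyte lineage markers, 447.7 CPM against 85.4 to 235.1 CPM in the other 9. Summed neuronal markers were lowest in the 2 low-score libraries (614.4 and 558.3 CPM). They were highest in the libraries with the highest scores, female +/+ replicate 2 (797.5 CPM) and male +/+ replicate 3 (1030 CPM). The libraries between had 623.6 to 765.2 CPM. The part of either set of markers in the Smc2 slope was not tested. In the other 6 fits in which it did not pass, those without either female E147A/+ library, any of the 3 male E147A/+ libraries or male +/+ replicate 3, the adjusted p was 0.0641 to 0.105. With litter as a covariate the slope was 1.17 and the adjusted p 0.577, with 0 calls over all genes and 1477 at an unadjusted p under 0.05. The replicate block gave a slope of 0.97 and an adjusted p of 0.0952. Both fits left fewer residual degrees of freedom than the main slope fit, and the part of this in the lost calls was not tested.

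**Figure D3:**
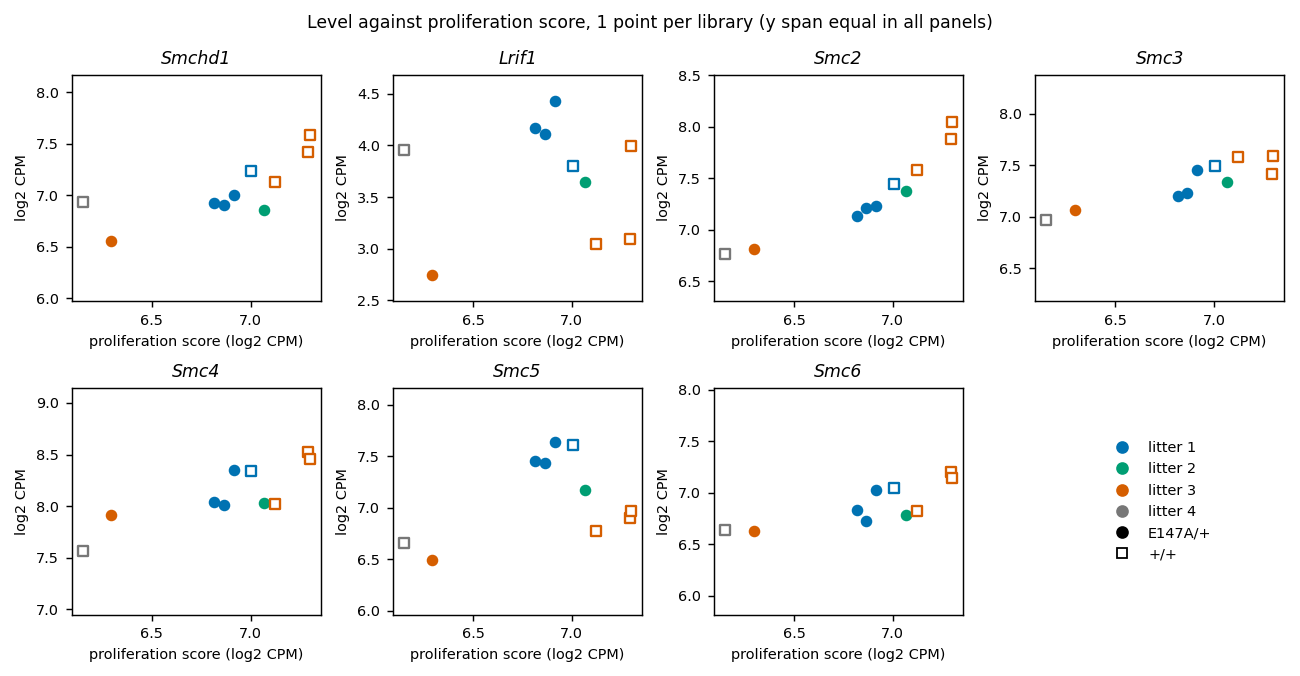
Level of each gene in log2 CPM (y axis, the same span of 2.2 units in each panel) against the proliferation score of the library (x axis, mean log2 CPM of 36 cell cycle genes); each point is 1 library, filled circles E147A/+ and open squares +/+, coloured by litter. Smc2 follows the score through the litters, while Smc5, like 11.4% of all genes tested, is higher in each litter 1 library than in each litter 3 library. Litter 1 scores run from 6.82 to 7.004, and no litter 3 score lies within that range.

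Partners of the complexes were examined on the same score. Of all genes tested 1.67% passed, 1.11% with a positive slope. Of the 6 other condensin subunits 3 passed, with positive slopes: Ncapg (1.06, SE 0.16, adjusted p 0.0284), Ncapg2 (1.05, SE 0.16, adjusted p 0.0284) and Ncapd3 (0.88, SE 0.16, adjusted p 0.0379), while Ncaph2 had 0.13 (SE 0.15, adjusted p 0.681). Of 18 cohesin genes 1 passed, Cdca5, the sororin that protects cohesin in S and G2 phase, with 0.96 (SE 0.15, adjusted p 0.0295). Over the 18 cohesin genes 14 slopes were positive and 4 negative. Among those that did not pass, Rec8, a meiotic subunit, had -2.34 (SE 0.97, adjusted p 0.233), and Pttg1, Hdac8 and Esco1 had -0.16, -0.11 and -0.056. Positive slopes that did not pass were 0.92 for Stag1 (adjusted p 0.0676), 0.75 for Sgo1, the shugoshin of mitotic centromeres (adjusted p 0.103), 0.41 for Smc1a (adjusted p 0.217) and 0.17 for the loader Nipbl (adjusted p 0.669). Of 7 SMC5/6 genes 1 passed, the localisation factor Slf1, with 1.41 (SE 0.22, adjusted p 0.0284). These calls, too, were absent in the fits named above that called 0 genes, and with litter or the replicate block, where 0 genes were called (1477 and 3771 at an unadjusted p under 0.05).

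The gene whose log2 CPM was most like that of Smc2 over the 10 libraries, among the 10415 genes whose mean log2 CPM reached 3, was Ccnb1 (Pearson's r 0.989), a member of the G2/M list, followed by Pola1 (0.984). For Smchd1 the 5 most alike were Eri1 (0.965), Wdr48 (0.955), Nusap1 (0.953), Wapl (0.945) and Iws1 (0.938). For Smc4 they were Rif1 (0.951) and Nsd2 (0.950), for Smc6 Mtrex (0.953) and Psip1 (0.953), and for Smc3 Ube2l3 (0.950) and Ccp110 (0.938). For Smc5 they were Timm9 (0.978) and Rufy2 (0.976), and for Lrif1 Fam210a (0.928) and Cklf (0.927). Among the 7 genes themselves the pairs fell into 2 sets. The 10 pairs among Smchd1, Smc2, Smc3, Smc4 and Smc6 had r from 0.72 (Smchd1 with Smc4) to 0.95 (Smc4 with Smc6), and Lrif1 with Smc5 had 0.73. The 10 pairs that join the sets had r from -0.071 (Lrif1 with Smc2) to 0.42 (Smc4 with Smc5). These values are descriptions over 10 libraries that share litters, library depth and the proliferation differences above.

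The promoter of Smc2 is shown because Smc2 was the gene that passed on the score. The window is 250 bases before to 50 bases after the start annotated by RefSeq, on the plus strand of GRCm38.p6 (chr4:52438971-52439270). It was searched on both strands for letters known from promoters of cell cycle genes: the CHR element TTTGAA, the CCAAT box CCAAT, and the E2F letters TTTGGCGC or TTTCGCGC. Capitals mark the matches.
Smc2 promoter: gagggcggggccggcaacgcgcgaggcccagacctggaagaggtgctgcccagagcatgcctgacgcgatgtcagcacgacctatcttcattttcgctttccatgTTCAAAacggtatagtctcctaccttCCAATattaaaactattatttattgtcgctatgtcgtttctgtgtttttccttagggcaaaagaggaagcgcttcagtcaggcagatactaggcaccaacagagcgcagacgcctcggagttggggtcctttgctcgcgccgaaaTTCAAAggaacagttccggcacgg
It held 2 CHR matches, both on the opposite strand, 1 CCAAT match and 0 E2F matches, and no match overlapped another. Of 32851 RefSeq promoter windows of 300 bases, 17.9% held the CHR letters, 37.4% the CCAAT letters and 0.813% the E2F letters. Windows were found for 6 of the 7 genes, with 2 windows for Lrif1. Smchd1 and Smc6 held 1 CHR match each, 1 of the Lrif1 windows held 2 CCAAT matches, and the windows of Smc3 and Smc5 held none of these letters. The Smc5 window (23272550 to 23272849) and the Lrif1 window with CCAAT matches lay inside the spans of these genes, away from their upstream ends. They may not be the main promoters of the counted genes. A match describes the letters only.

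As for 11.4% of all genes tested, Smc5 levels were higher in each litter 1 library than in each litter 3 library. It was at 172.6, 175.4, 199.0 and 195.5 CPM in the 4 libraries of litter 1 and at 109.3, 119.7, 89.9 and 125.5 CPM in the 4 libraries of litter 3. The litters did not overlap, and litter 1 holds 3 E147A/+ libraries and 1 +/+ library while litter 3 holds 1 and 3. The single libraries of litter 2 and litter 4 were at 143.8 and 100.9 CPM. All litter 1 libraries lay above all litter 3 libraries for 11.4% of all genes tested, and among the 7 genes for Smc5 alone. The reverse held for 0 of the 7 and for 9.67% of all genes. This comparison was added after the levels were seen. In the edgeR fit with the 4 group means and litter, the log2 difference of litter 3 minus litter 1 was -0.88 (SE 0.17), with an unadjusted p of 0.00136 and an adjusted p of 0.108, where 0.111% of all genes passed. It stayed negative in the 15 alternatives tried, from -1.06 to -0.64, and passed in DESeq2 (adjusted p 0.000601) and without the filter on low counts (adjusted p 0.00196). In this fit the female libraries do not inform the litter difference, which rests on the male libraries of litters 1 and 3. Alternatives that left out a female library are therefore no separate check, and gave -0.89 to -0.88. Lrif1 averaged 17.7 ± 3.13 CPM (SD, n = 4) in litter 1 and 9.79 ± 4.14 CPM (SD, n = 4) in litter 3, with overlap, and its difference was -0.78 (SE 0.44, adjusted p 0.407). Single libraries move it: it was 0.19 without male E147A/+ replicate 3, -1.57 without male +/+ replicate 2 and -1.57 without male +/+ replicate 3. The other 5 genes had litter differences between -0.13 and 0.060, each smaller than its SE.

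In the 4 female libraries part of the reads had been assigned to the 129 or to the Cast allele, and for the 7 genes these made up 13.9% to 43.5% of the counts. The Cast share of Smchd1 was 0.379% (95% Wilson interval 0.148 to 0.971) and 0.111% (0.0196 to 0.627) in the E147A/+ libraries and 48.8% (45.5 to 52.0) and 47.6% (45.0 to 50.3) in the +/+ libraries. Both E147A/+ females thus had almost no Cast counts of Smchd1, and both +/+ females nearly equal counts of the alleles. The region shared this: over the nearest 10 genes, each with 10 or more allelic counts in all 4 female libraries, the median Cast share was 0.131% and 0% in E147A/+ and 52.9% and 49.9% in +/+. Genotype at Smchd1 and strain of that region cannot be told apart in these females. The labels give the mothers as F1 of 129 and C57, and whether the 129 counts also hold C57 reads is not given in the sources used here. Split by these shares, the Smchd1 level was 119.4 and 115.7 CPM from the 129 side in E147A/+, and 71.6 and 89.9 CPM in +/+ beside 68.1 and 81.7 CPM from Cast. These intervals, and the limit given for a count of 0, reflect counting error alone.

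For the other 6 genes the Cast share was either near 0 or near 50% in each library, and it did not follow genotype as for Smchd1. Smc4 was near 0 in replicate 1 of both genotypes (0.0676% in E147A/+ and 0.196% in +/+) and near 50% in replicate 2 of both (48.6% and 49.0%). Lrif1, on the same chromosome, had the same pattern at lower counts: 0.680% and 44.4% in E147A/+, and in +/+ 0 of 42 allelic counts and 53.4%. A count of 0 of 42 allows a share of up to 7.14% by the limit of 3 counts, and the 95% Wilson upper bound is 8.38%. Smc2 was near 50% in +/+ replicate 1 alone (47.1%, 95% Wilson interval 44.5 to 49.7) and at 0.0622% to 0.313% in the other females. Smc3 and Smc5, both on chromosome 19, were near 50% in E147A/+ replicate 2 alone (48.9% and 51.7%), with shares of 0.108% to 0.581% elsewhere. Smc6 was near 0 in E147A/+ replicate 2 alone (0.455%) and at 48.4% to 51.2% in the other females. For each gene and library the median over its 10 neighbours fell in the same class, from 0% to 0.583% where the gene was near 0 and from 41.2% to 54.5% where it was near 50%.

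Total levels are set beside the Cast shares here, with no test of copy number or strain. Smchd1 was higher in both libraries with Cast counts near 50% (139.7 and 171.6 CPM) than in both without (119.9 and 115.8 CPM), the same split as genotype. Smc2 was at 191.9 CPM in +/+ replicate 1, with both alleles, and at 236.5 CPM in +/+ replicate 2, with 129 counts almost alone. Smc4 was at 258.8 CPM in +/+ replicate 1 without Cast counts and at 368.9 CPM in replicate 2 with them, while in E147A/+ the same change of alleles went with 257.6 and 262.0 CPM. Smc5 was lowest, at 109.3 and 119.7 CPM, in the +/+ libraries and highest, at 172.6 CPM, in E147A/+ replicate 1, and these 3 libraries all had 129 counts almost alone. Where both alleles were present, each of the 7 genes had close to equal counts from them, with shares between 44.4% and 53.4%, the extremes being those of Lrif1 with 99 and 73 allelic counts. No test was made on these shares.

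**Figure D4:**
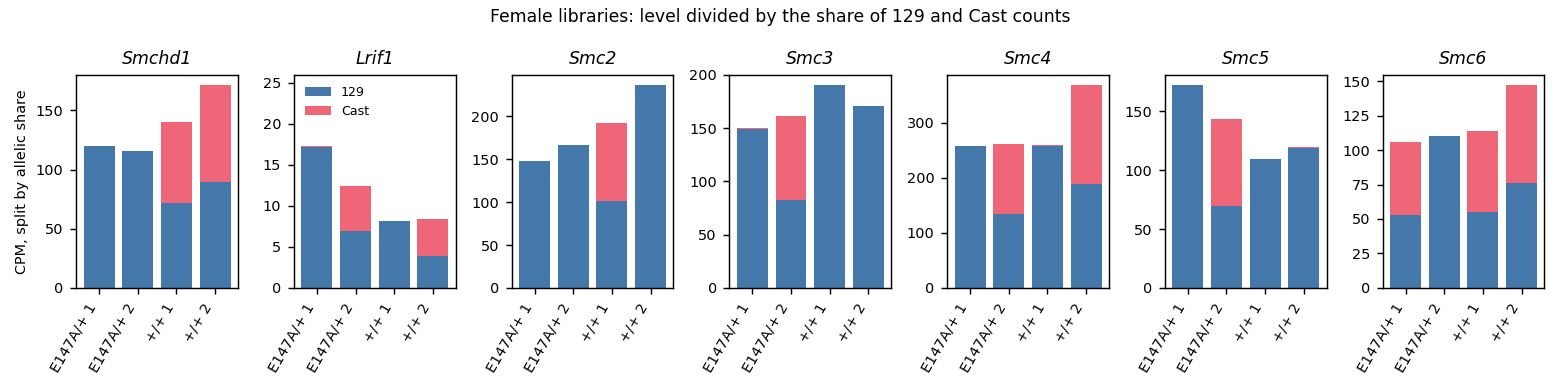
Level of each gene in the 4 female libraries (bars from 0, CPM), divided by the share of 129 (blue) and Cast (red) among its allelic counts; axes differ between panels. Smchd1 shows a Cast share near 50% in both +/+ libraries and near 0 in both E147A/+ libraries, while the other genes show one near 50% in 1, 2 or 3 libraries that do not divide by genotype.

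The chromatin partners of SMCHD1 and its ATPase relatives were examined last. Of the 3 HP1 genes, Cbx1 was at 0.34 (SE 0.23, adjusted p 0.824), Cbx3 at -0.19 (SE 0.13, adjusted p 0.824) and Cbx5 at -0.17 (SE 0.20, adjusted p 0.864), as log2 fold change of genotype over both sexes. Of the 5 MORC genes, which encode GHKL ATPases of the same class as SMCHD1, 3 were tested: Morc2a was at -0.037, Morc3 at -0.039 and Morc4 at 0.13, with adjusted p from 0.875 to 0.971. Morc1 and Morc2b had at most 5 and 3 counts in any library and were not tested. On the proliferation score none of the 3 HP1 and 3 MORC genes passed, Cbx1 having the lowest p (slope 0.91, SE 0.24, adjusted p 0.0999).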

How the data were processed

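Gene counts came from 10 stranded poly(A) libraries. The authors deposited raw counts per gene, and for the 4 female libraries counts assigned to the 129 or the Cast allele; no per-sample column was left unused. The submitters' processing notes name Trim Galore 0.4.4, HISAT2 2.0.5, featureCounts, R 3.5.1, edgeR 3.24.0 and GRCm38 (mm10), with no roles. How strand was set in counting, and how reads were assigned to alleles, is not given in the sources used here.

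Libraries were grouped by title. Genes kept by filterByExpr were scaled with TMM factors. Quasi-likelihood tests in edgeR 4.0.16, run in R 4.3.3, used 1 mean per group over 10 libraries. They left 6 residual degrees of freedom, 5 with the score and 3 with litter. Joining the score with litter or with the replicate block left fewer. P-values were adjusted by Benjamini-Hochberg over all genes, threshold 0.05. SE is the absolute log2 fold change over the square root of F. CPM use TMM-scaled totals, and log2 CPM a prior count of 2. Replicates are cultures of separate embryos, per the labels; p-values measure the spread between these cultures.

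Members, lists and rules were chosen with earlier results of these data known. Slopes of the cell cycle genes, which make up the score, are not given. For all other results the text names the 7 genes and the genes most alike by Pearson's r. Of each list it names those that passed and up to 3 with the lowest p. Others, such as Smc1a, Nipbl, Rec8, Hdac8, Esco1, Ncaph2, Sgo1 and Eid3, were chosen after their values were seen.

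Alternatives were RLE, DESeq2 1.42.0, limma-voom with sample quality weights (limma 3.58.1), other filters, litter, a replicate block, other scores and leaving out libraries. The labels do not say that replicate numbers pair libraries. Among males, those numbered 2 share litter 1 and those numbered 3 share litter 3, and no other same-numbered libraries of a sex share a litter. Deviations of same-numbered libraries had correlations of -0.304 in females and -0.238, 0.416 and 0.0341 in males, so not every pair was over 0.1 and the libraries were not treated as paired. No replicate pair agreed within sampling noise (chi-square per gene 34.0 to 193.3). The tests were tried on simulated counts, for genotype and for slope. They missed most of the smaller changes put in and part of the larger ones. The smaller changes were themselves larger than any genotype value or slope of the 7 genes in the main fits. A gene that did not pass is therefore not shown to be unchanged.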

Additional observations from a re-analysis of the deposited data

How the results depend on the processing

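The genotype calls over both sexes numbered 14 and became 113 in DESeq2, 29 in limma-voom with sample quality weights (as wherever limma-voom is named here), 33 without a filter, 9 with 10 counts in every library, 3 with litter and 5 with the replicate block; in females they went from 2 to 46 in DESeq2, 8 without a filter, 1 with only the groups compared, and 0 with litter (286 at an unadjusted p under 0.05) or the replicate block (836). In males they went from 4 to 48 in DESeq2, 9 in limma-voom, 14 without a filter, 2 with litter, 2 with the replicate block and 1 with only the groups compared, and the interaction from 0 to 2 in DESeq2 and 1 with litter. The slope calls went from 285 to 1615 in DESeq2, 1421 in limma-voom, 712 without group means, 166 with the G2/M score and 0 with litter, the replicate block (3771 unadjusted) or without the 2 low-score libraries. The litter calls went from 19 to 1187 in DESeq2, 0 in limma-voom (1969 unadjusted) and 1407 without a filter. Crossing the female numbers in the block, added because their correlation was -0.304, gave 6 calls over both sexes, 0 in females (1020 unadjusted) and 743 slopes. The causes of these shifts were not tested. Leaving out 1 library gave 2 to 12, 0 to 2, 1 to 4, 0 to 1, 0 to 373 and 0 to 19 calls in the same order.

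Smchd1 had a negative genotype value in each of 19 alternatives over both sexes (-0.53 to -0.30) and passed in none. Signs turned with litter for Lrif1 (-0.0012) and Smc5 (-0.26) and with the score for Smc4 (0.0094); for slopes without the 2 low-score libraries for Lrif1 (-0.069) and Smc5 (-1.24), and without male E147A/+ replicate 3 for Lrif1 (-0.048), as did the Lrif1 litter difference (0.19). The difference in proliferation score was -0.36 to -0.073 leaving out 1 library, and without male +/+ replicate 1 it was -0.36 with an exact permutation p of 0.0333, the smallest possible there. The replicate block changed 1 call among the 7 genes, the Smc2 slope (adjusted p 0.0952). With the female numbers crossed in the block, the Smc2 slope was 0.98 and passed the slope test (adjusted p 0.0328). Leaving out 1 library, the Lrif1 slope ran from -0.048 to 1.95 and its litter difference from -1.57 to 0.19. Counts of Lrif1 were the lowest of the 7 genes, 200 to 747 per library. The crossed pairing, the score as a covariate and the litter comparison were chosen after seeing the data.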

Other observations

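Of 4 genes of the meiotic forms of cohesin, 2 were tested. Smc1b and Rad21l had at most 23 and 7 counts in any library and were not tested, while Rec8 and Stag3 passed the filter with means of 1.67 and 3.74 CPM in E147A/+ and 1.39 and 4.62 CPM in +/+ (n = 5 each). Their genotype values were 0.30 (SE 0.70, adjusted p 0.935 in edgeR) and -0.25 (SE 0.39, adjusted p 0.903).

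The tested genes next to Smchd1 on chromosome 17 did not pass for genotype either. On the side of lower coordinates Emilin2 (71252172 to 71311978) was at 0.15 (SE 0.64) and Lpin2 at -0.19 (SE 0.11); on the other side Ndc80 (71496100 to 71526857), a kinetochore gene, was at -0.33 (SE 0.22) Gm23115 at 1.61 (SE 0.82, adjusted p 0.821) and Spdya at -1.10 (SE 0.34, adjusted p 0.701 in edgeR). Gm23115 lies within the span of Ndc80, and Gm37639 and Gm38220 within that of Smchd1, and reads from overlapping genes could not be told apart here. The values of Gm37639 and Gm38220 were 0.55 (SE 0.45) and -0.21 (SE 0.61).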
